A study of Mus musculus with 12 samples.

Results

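Chemokines and their receptors were followed in the retinal pigment epithelium (RPE) of rd6 and wild-type mice. The members are the genes whose symbol begins with Ccl, Cxcl, Xcl, Ccr, Cxcr, Xcr or Ackr directly followed by a digit, together with *Cx3cl1*, and whose mean over the 12 libraries is at least 1. The receptor *Cx3cr1* is not a member. By this rule 53 of the 28591 genes of the table were members, 38 ligands and 15 receptors by name. GENCODE lists *Ccl19-ps1* and *Ccl19-ps3* among these as pseudogenes and *Cxcl11* as a polymorphic pseudogene. Another 13 genes with such names had a mean under 1, among them *Ccl20*, *Ccr3*, *Ccr6*, *Cxcl13*, *Xcl1* and *Xcr1*.

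Chemokines are small secreted proteins that draw leukocytes along a gradient and act through receptors coupled to G proteins. They are sorted into CC, CXC, XC and CX3C families by the spacing of their first cysteines, and atypical receptors bind them without G-protein signaling and can remove them from the surroundings. In the eye, the RPE is a known source of several chemokines, and microglia of the retina carry the receptor for *Cx3cl1*.

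The 6 WT libraries are from C57BL/6J mice, and the 6 rd6 libraries are from *Mfrp* rd6/rd6 mice, which carry the mutation in every cell from conception rather than in the RPE alone. All mice were 1 mo old, no treatment is given for either group, and each library was made from total RNA after the RPE of both eyes had been put together. The RPE was freed from opened eyecups after the neural retina had been taken off, so other cells of the eyecup may be present, and fewer cells of a type cannot be told apart from less RNA per cell in such bulk samples. The labels give no animal identifiers or sex, and p-values measure only the spread between these libraries.

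The libraries held 28907262 to 33152725 reads on genes, so that 1 read was worth 0.903 to 1.11 normalized counts. *Mfrp*, the gene mutated in rd6, was at 30132 to 45442 normalized counts in WT and at 20442 to 29732 in rd6, lower in every rd6 library than in any WT library. The defining RPE genes *Rpe65*, *Lrat*, *Rgr* and *Ttr* were abundant in all 12 libraries. Some libraries were often at an end of their genotype for the members. Of the 53, WT replicate 4 was the highest WT library for 18, rd6 replicate 5 the highest rd6 library for 16 and rd6 replicate 4 the lowest rd6 library for 19.

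Normalized counts are read counts divided by the size factor of the library. The 26 members with a mean of at least 10 were tested with limma on log2(normalized count + 1) within a fit of 17768 genes, and genes are said to have risen or fallen where q, the p-value after Benjamini-Hochberg adjustment, was below 0.05. Of these 26 members, 6 rose in rd6 (among them *Ccl3*, *Ccl5*, *Ccl6*, *Cx3cl1* and *Cxcr4*), 2 fell (*Ccl9* and *Ackr3*) and 18 did not pass the test. Over all genes tested, 11.4% rose and 11.6% fell. With a further limit of 0.81 on the size of the log2 fold change, the fold limit of the study, 4 members were higher and 1 was lower, against 4.69% and 2.12% of all genes. The fitted change lay above 0 for 19 of the 26 members and below 0 for 7, with a median log2 fold change of 0.53, beside 0.0049 over all genes tested. All 6 rd6 libraries lay above all WT libraries for 1 tested member, *Ccl3*, and below them for 1, *Ccl9*, against 5.77% and 5.67% of all genes tested.

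**Figure D1:**
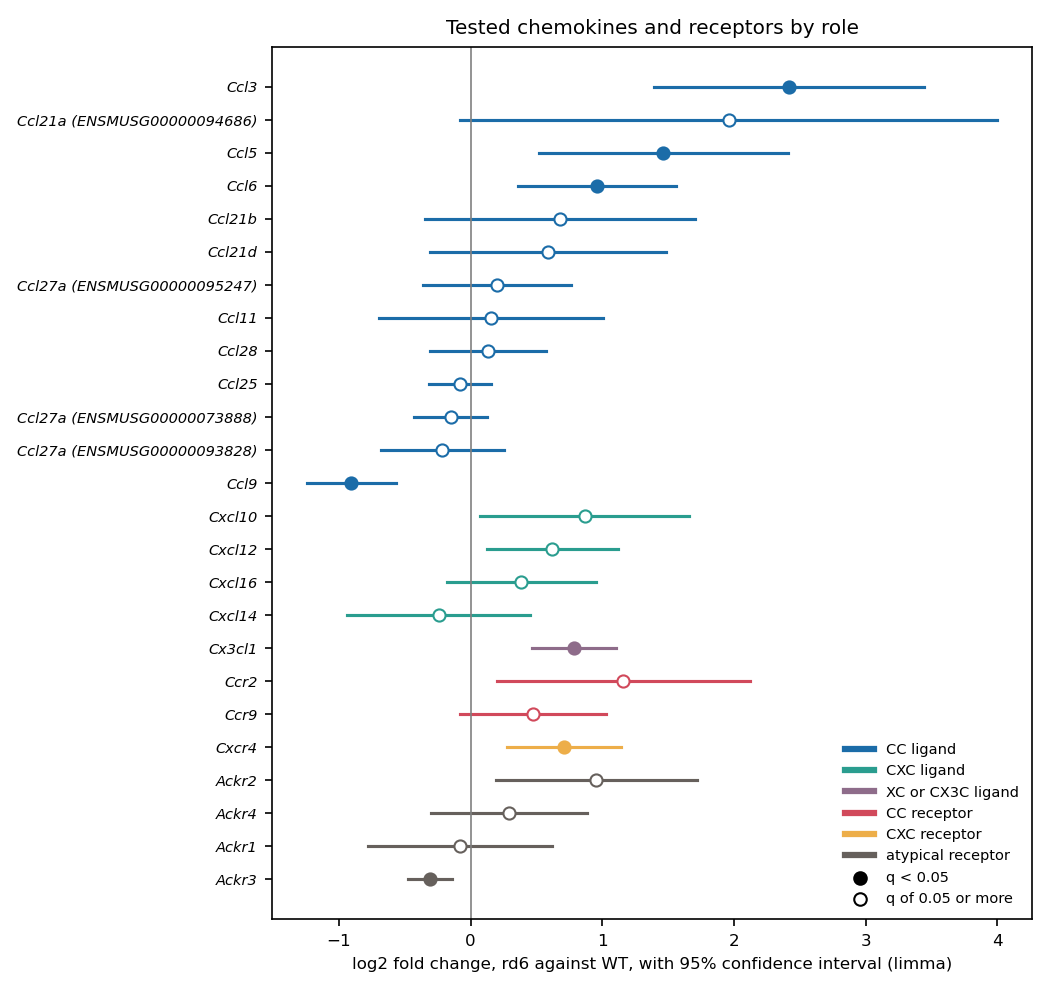
Log2 fold change of rd6 against WT for 25 of the tested members, ordered by role, with 95% confidence intervals from limma on log2(normalized count + 1). Filled points mark q below 0.05 and open points the others. *Ccl3* has the largest fitted change, *Ccl9* is the lowest, and the 4 CXC ligands have open points.

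For members whose values are described here, the 250 bases before the RefSeq start of the gene (build GRCm38.p6, read 5′ to 3′ on the strand of the gene) show what precedes each. Windows were taken for 30 of the 53 members. Members whose symbol several genes share, such as *Ccl27a*, or whose entry joins symbols, were not looked up. The promoter table did not hold *Ccl4* or *Ccl5*. *Ccl3*, *Ccl6* and *Ccl9* are neighbors on chromosome 11 that differed in direction, and *Cx3cl1* is the most abundant ligand. Capitals mark matches to any of 5 motifs, namely the κB motif, TATAAA, TGA and TCA with 1 base between them (AP-1), GAGGAA (PU.1) and GAAANNGAA (IRF). TATAAA was searched on the strand of the gene and the others on both strands.
*Ccl3*, chr11:83649379-83649628, minus strand: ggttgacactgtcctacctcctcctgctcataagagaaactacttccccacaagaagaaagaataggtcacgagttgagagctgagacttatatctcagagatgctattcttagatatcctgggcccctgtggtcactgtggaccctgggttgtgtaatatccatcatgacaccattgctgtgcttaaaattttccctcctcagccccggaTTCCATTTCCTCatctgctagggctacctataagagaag
*Ccl6*, chr11:83593088-83593337, minus strand: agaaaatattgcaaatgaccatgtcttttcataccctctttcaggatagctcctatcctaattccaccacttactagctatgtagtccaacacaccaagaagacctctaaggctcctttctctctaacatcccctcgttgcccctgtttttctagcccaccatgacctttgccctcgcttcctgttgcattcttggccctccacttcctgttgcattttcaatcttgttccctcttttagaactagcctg
*Ccl9*, chr11:83578637-83578886, minus strand: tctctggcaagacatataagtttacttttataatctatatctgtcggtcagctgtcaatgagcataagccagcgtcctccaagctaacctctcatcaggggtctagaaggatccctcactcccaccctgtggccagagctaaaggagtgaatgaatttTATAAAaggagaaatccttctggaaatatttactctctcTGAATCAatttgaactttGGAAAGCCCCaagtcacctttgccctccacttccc
*Cx3cl1*, chr8:94771930-94772179, plus strand: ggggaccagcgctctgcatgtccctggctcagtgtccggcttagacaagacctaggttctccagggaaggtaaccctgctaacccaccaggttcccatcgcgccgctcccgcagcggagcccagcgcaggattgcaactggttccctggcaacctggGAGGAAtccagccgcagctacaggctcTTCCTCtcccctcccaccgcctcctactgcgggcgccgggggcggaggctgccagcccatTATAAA

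Counting back from the start, with -1 as the base before it, the *Ccl3* window has GAAANNGAA beginning at -39 and GAGGAA at -33, both on the opposite strand and overlapping each other. The *Ccl9* window has a κB match at -35, the AP-1 letters at -53 and TATAAA at -92, and the *Ccl6* window has none of the 5. *Cx3cl1* has GAGGAA at -93 and -66 and TATAAA at -6. For each member the RefSeq start nearest to its GENCODE start was taken, without a limit on distance, and the 2 can differ. The *Ccl21b* window, chr4:42172870-42173119, lies far from the member gene, which starts at 42255767. The κB motif was in 6 of the 30 member windows, beside 7.28% of 32536 distinct windows of the same length. For TATAAA this was 8 members beside 7.55%, for the AP-1 letters 3 beside 6.73%, for GAGGAA 9 beside 23.4%, and for GAAANNGAA 5 beside 7.15%. These are matches of letters, and the binding of a factor was not measured.

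Of the 28 CC ligands, 13 were tested with limma, 3 rose and 1 fell. Among them *Ccl3* (macrophage inflammatory protein 1α, a ligand of *Ccr1*) rose most. By replicate number, 1 to 6, the WT libraries held 1.97, 5.16, 6.22, 0.971, 1.11 and 13.5 normalized counts and the rd6 libraries 16.5, 24.7, 16.4, 38.2, 21.7 and 25.8, and the genotypes did not overlap. The means were 4.83 ± 4.79 and 23.9 ± 8.06 (SD, n = 6), and the log2 fold change was 2.42 (SE 0.47, 95% confidence interval 1.39 to 3.44, limma q = 0.00281). Its neighbor *Ccl4* (macrophage inflammatory protein 1β, an attractant of monocytes and T cells) was too low for that fit, with 3, 1, 1, 0, 2 and 1 reads in the WT libraries, in the same order, and 4, 5, 9, 4, 10 and 4 in rd6. Every rd6 library again had more than any WT library. With 8 and 36 reads in all, the ratio of rd6 to WT reads per depth was 4.34 (exact 95% interval for counting error 1.98 to 10.8), and edgeR's quasi-likelihood test gave q = 0.0154.

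*Ccl5* (RANTES, a chemoattractant of T cells and monocytes through *Ccr1* and *Ccr3* among others) rose as well. WT libraries 1 to 6 held 8.88, 5.16, 13.5, 0.971, 7.75 and 3.87 normalized counts, and rd6 libraries 1 to 6 held 23.3, 21.6, 9.24, 22.0, 17.2 and 12.9. The ranges overlapped, and 4 of the 6 rd6 libraries lay above the highest WT library. The means were 6.68 ± 4.36 and 17.7 ± 5.64 (SD, n = 6), and the log2 fold change was 1.46 (SE 0.44, 95% confidence interval 0.52 to 2.41, limma q = 0.0291). The q was above 0.05 without any 1 of WT replicates 2 and 6 and rd6 replicates 1, 2 and 4, at 0.0550 to 0.0617.

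*Ccl6* and *Ccl9* are closely related mouse chemokines that act on *Ccr1*, and they went opposite ways. For *Ccl6*, the normalized counts by replicate number were 22.7, 39.2, 55.0, 58.3, 36.5 and 54.1 in WT, and in rd6 they were 109, 110.3, 87.3, 46.8, 111 and 60.6. In rd6, 5 of the 6 libraries lay above the highest WT library, and replicate 4 lay within the WT range. The means were 44.3 ± 13.9 and 87.6 ± 28.1 (SD, n = 6), and the log2 fold change was 0.96 (SE 0.28, 95% confidence interval 0.36 to 1.56, limma q = 0.0245). Without WT replicate 2, rd6 replicate 1 or rd6 replicate 2, q was 0.0501, 0.0530 and 0.0561. *Ccl6* overlaps *E230016K23Rik* on the other strand, and counting was by standard parameters of Rsubread, with no strand setting named, so reads of the pair may be shared.

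The WT libraries held 118, 114, 124, 118, 176 and 179 normalized counts of *Ccl9*, by replicate number, and the rd6 libraries 66.9, 75.3, 96.5, 70.7, 67.7 and 59.6. Each rd6 library was below each WT library. The means were 138 ± 30.5 and 72.8 ± 12.7 (SD, n = 6), and the log2 fold change was -0.91 (SE 0.16, 95% confidence interval -1.24 to -0.57, limma q = 0.00114). It was the only member that fell past the fold limit, and it had fallen with q below 0.05 under each alternative run, those that leave out 1 library included.

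*Ccl5*, *Ccl9*, *Ccl6*, *Ccl3* and *Ccl4* lie in this order within 138.906 kb of chromosome 11 (mm10, 83525778 to 83664683). Put on 1 scale with edgeR on the recovered reads of 22917 genes (mean of 1 or more), 4 of these 5 rose and *Ccl9* fell. Over all genes of that fit, 9.5% rose and 7.61% fell, and over the 53 members 10 rose and 2 fell. A second group of CC ligands, 81.229 kb of the same chromosome from *Ccl2* to *Ccl8*, had 1 of 5 members past q of 0.05. That member was *Ccl12* (monocyte chemoattractant protein 5, a ligand of *Ccr2*), whose reads by replicate number were 2, 0, 2, 3, 0 and 3 in WT, as against 7, 12, 10, 11, 4 and 7 in rd6. The genotypes did not overlap, the ratio of reads per depth was 4.92 (exact 95% interval 2.47 to 10.9), and edgeR gave q = 0.0125. Over all genes of that fit, 4.76% had every rd6 library above every WT library, and of the 27 members with a mean under 10 these were *Ccl4* and *Ccl12*.

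**Figure D2:**
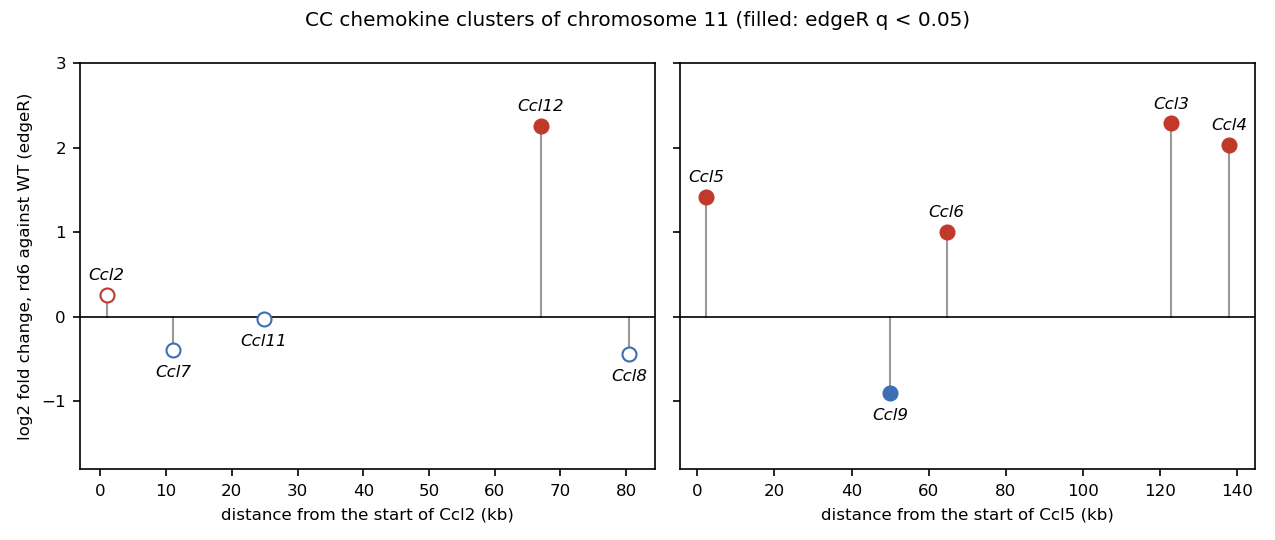
Log2 fold change of rd6 against WT (edgeR on recovered reads) against the distance of each gene's middle from the start of *Ccl2* or *Ccl5* in kb, for the CC ligand clusters of chromosome 11. Filled points mark q below 0.05. *Ccl12* alone is filled in the left panel, and in the right panel *Ccl9* lies below 0 between *Ccl5* and *Ccl6*, which lie above it.

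The other monocyte and eosinophil attractants of the *Ccl2* group did not pass the test. *Ccl2* (monocyte chemoattractant protein 1) had 4, 0, 0, 3, 2 and 5 reads in WT and 3, 3, 5, 1, 2 and 3 in rd6, 14 and 17 in all, with a ratio of 1.17 (exact 95% interval 0.543 to 2.56). *Ccl7* and *Ccl8* had at most 6 reads in any library. *Ccl11* (eotaxin) was at 16.2 ± 9.32 (SD, n = 6) normalized counts in WT and 15.6 ± 3.29 in rd6. *Ccl24*, an eotaxin encoded on chromosome 5, had 10 and 14 reads in all and did not pass either.

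The most abundant CC ligand by normalized counts was *Ccl25*, the ligand of *Ccr9* that guides T cells to the thymus and gut. Its normalized counts were 241, 223, 252, 209.8, 260.2 and 280.3 in the WT libraries and 224, 253, 241, 284, 195 and 196 in the rd6 libraries, and its fitted log2 fold change was -0.08 (95% confidence interval -0.31 to 0.15, limma q = 0.63). *Ccl25* overlaps *Elavl1* on the other strand. *Ccl28*, an epithelial ligand of *Ccr10* and *Ccr3*, was at 26.9 ± 7.60 and 28.9 ± 4.10 normalized counts (SD, n = 6) and did not pass the test. *Ccl17* and *Ccl22*, which share the receptor *Ccr4*, had 17 reads each in WT and 15 and 8 in rd6, and WT replicate 4 alone held 10 and 12 of the WT reads.

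The *Ccl19*, *Ccl21* and *Ccl27* families, which hold near-identical copies on chromosome 4 and on unplaced scaffolds, gave 13 members, whose reads may have been split between copies. Of the 6 tested, none passed with limma (0 at an unadjusted p below 0.05), edgeR or DESeq2. The widest was *Ccl21a* (ENSMUSG00000094686, a ligand of *Ccr7*), from 0 to 22.2 normalized counts in WT and from 4.77 to 95.7 in rd6, with a log2 fold change of 1.96 (SE 0.94, limma q = 0.158). The main *Ccl27a* gene (ENSMUSG00000073888), a ligand of *Ccr10*, was at 141 ± 26.9 and 125 ± 10.5 normalized counts (SD, n = 6). Of the 7 low copies, the gene listed as Ccl21b/Ccl21c with the identifier ENSMUSG00000096873 had 3 reads in WT and 20 in rd6, a ratio of 6.43 (exact 95% interval 1.91 to 33.8, edgeR q = 0.0353). Its q was 0.0532 to 0.0757 without any 1 of WT replicates 4, 5 and 6 and rd6 replicates 1, 5 and 6. Leaving these families out, 9 of 40 members rose and 2 fell by edgeR.

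Of the 9 CXC ligands, 4 were tested and none passed with limma (2 at an unadjusted p below 0.05) or edgeR, and 1 passed with DESeq2. *Cxcl12*, which holds leukocytes and progenitors in tissues through *Cxcr4*, was the most abundant. By replicate number, WT libraries were at 514, 317, 654, 569, 525 and 376 normalized counts and rd6 libraries at 1146, 913, 888, 464, 556 and 660.1. The ranges overlapped, and 4 of the 6 rd6 libraries lay above the highest WT library. Its log2 fold change was 0.62 (SE 0.23, 95% confidence interval 0.12 to 1.12) with limma q = 0.0698, edgeR q = 0.0638 and DESeq2 q = 0.0227. *Cxcl10*, an interferon-induced ligand of *Cxcr3*, was at 13 ± 9.34 normalized counts in WT and 21.7 ± 6.30 in rd6 (SD, n = 6), with limma q = 0.110. Its neighbors are *Cxcl9*, a ligand of the same receptor, and *Cxcl11*, annotated as a polymorphic pseudogene, so that its reads may not stand for a working ligand. They had 18 and 31 reads in WT and 50 and 17 in rd6. *Cxcl9* was above the highest WT library in 5 of 6 rd6 libraries, with edgeR q = 0.0749. *Cxcl10* and *Cxcl11* overlap *Art3* on the other strand.

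*Cxcl16*, a membrane-bound ligand of *Cxcr6*, was at 167 ± 76.5 normalized counts in WT and 212 ± 65.6 in rd6 (SD, n = 6) and did not pass the test. Its highest value of all 12 libraries was 319, in WT replicate 4, where the other WT libraries had 105 to 156. *Cxcl14*, an epithelial chemokine, lay between 33.5 and 56.3 in WT and between 21 and 102 in rd6, with a log2 fold change of -0.24, the lowest of the 4 fitted with limma, and of -0.04 with edgeR, where *Cxcl2* was at -0.86 and *Cxcl11* at -0.85, none past the test. The neutrophil attractants *Cxcl1*, *Cxcl2* and *Cxcl5*, ligands of *Cxcr2*, had 36, 19 and 17 reads in the WT libraries together and 36, 10 and 27 in the rd6 libraries. WT replicate 4 held 23 of the *Cxcl1* and 17 of the *Cxcl2* reads of WT, and rd6 replicate 3 held 20 of the *Cxcl1* reads of rd6.

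*Cx3cl1* (fractalkine), a membrane-bound ligand on neurons and other cells that is also shed, was the most abundant ligand on both scales. WT libraries 1 to 6 were at 549, 451, 698, 740.1, 611 and 463 normalized counts, and rd6 libraries 1 to 6 at 1163, 1070.0, 873, 728, 1038 and 1167. In rd6, 5 of 6 libraries were above the highest WT library, and replicate 4 lay within the WT range. The means were 585 ± 119.7 and 1007 ± 173 (SD, n = 6), and the log2 fold change was 0.79 (SE 0.15, 95% confidence interval 0.47 to 1.11, limma q = 0.00215). This lay just under the fold limit of 0.81. Its q stayed below 0.05 under each alternative run. Its receptor *Cx3cr1*, a defining gene of microglia and of some monocytes, went from 60.8 to 633 normalized counts (log2 fold change 3.44, limma q = 5.12e-06).

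**Figure D3:**
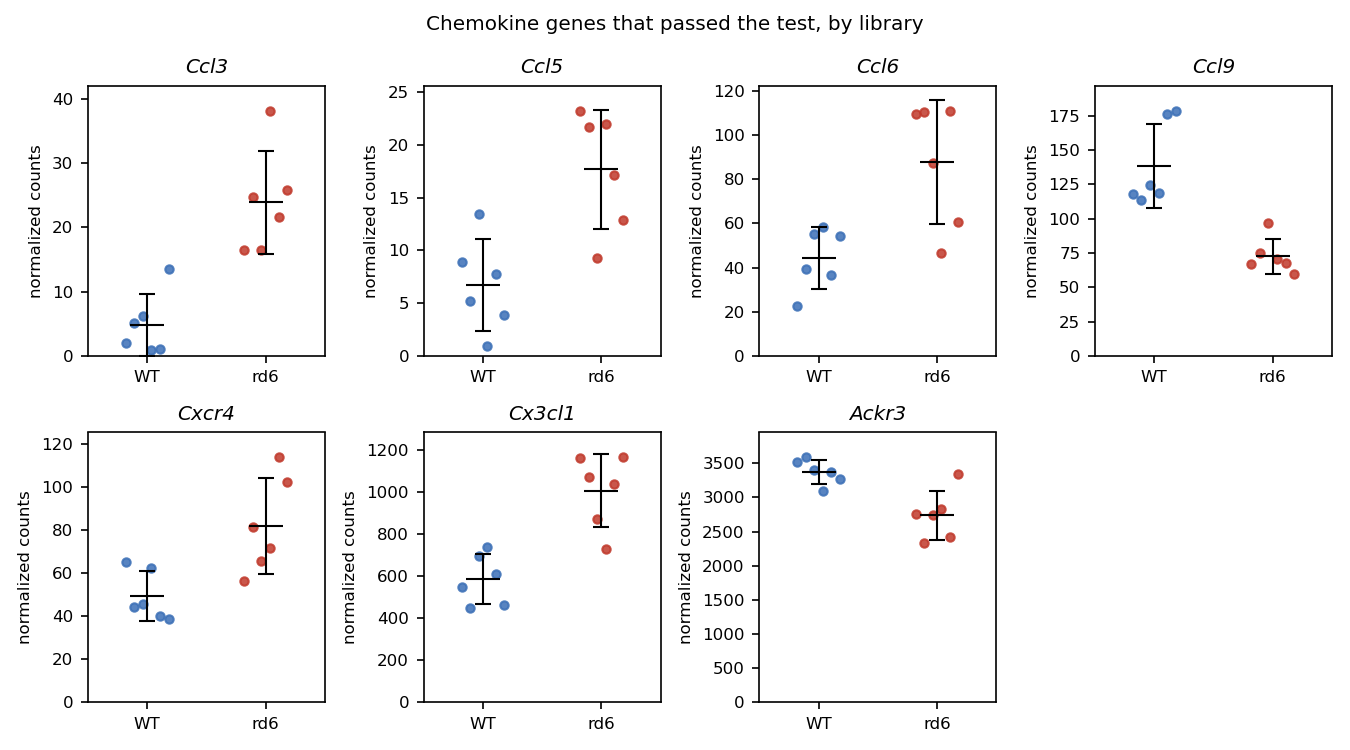
Normalized counts by library for 7 members that passed the test with limma, WT in blue and rd6 in red, with 6 libraries each. Bars give the mean and SD. The genotypes are apart for *Ccl3* and *Ccl9* and overlap for the others.

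Among the CC receptors, *Ccr2* (the receptor of *Ccl2* and *Ccl12* on monocytes) had the highest mean over the 12 libraries of the CC receptors by normalized counts, while in WT alone *Ccr9* was higher. The normalized counts of *Ccr2* were 21.7, 20.6, 12.4, 5.83, 7.75 and 16.4 for the WT libraries and 33.9, 20.6, 82.2, 38.2, 28.0 and 10.9 for the rd6 libraries, with the highest value in rd6 replicate 3. Its log2 fold change of 1.16 (SE 0.44) did not pass with limma (q = 0.0783) or edgeR (q = 0.0613) and passed with DESeq2 (q = 0.0252). *Ccr1*, a receptor of *Ccl3* and *Ccl5* and that of *Ccl6* and *Ccl9*, had 5, 3, 7, 17, 3 and 2 reads in WT and 10, 14, 10, 4, 3 and 4 in rd6, 37 and 45 in all. The ratio was 1.17 (exact 95% interval 0.742 to 1.86, edgeR q = 0.797). *Ccr9*, the receptor of *Ccl25*, was at 17.9 ± 7.75 and 23.6 ± 2.73 normalized counts (SD, n = 6) and did not pass, and several genes overlap it. *Ccr7* and *Ccr10*, receptors of *Ccl19* and *Ccl21* and of *Ccl27*, had 14 and 15 reads in WT and 32 and 17 in rd6, with edgeR q of 0.145 and 0.92.

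Of the 5 CXC receptors 1 was abundant enough for limma. This gene, *Cxcr4* (the receptor of *Cxcl12* on leukocytes, endothelium and progenitors) rose, and it was the most abundant of its class. By replicate number, its normalized counts were 65.1, 44.4, 45.6, 62.2, 39.9 and 38.7 for WT, compared with 56.2, 81.4, 65.7, 71.6, 114 and 102 for rd6. In rd6, 5 of 6 libraries were above the highest WT library. The means were 49.3 ± 11.4 and 81.9 ± 22.2 (SD, n = 6), and the log2 fold change was 0.71 (SE 0.20, 95% confidence interval 0.27 to 1.14, limma q = 0.0225). Without WT replicate 6 or rd6 replicate 6, q was 0.0504 and 0.0506.

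*Cxcr2* (the main chemokine receptor of neutrophils) showed the highest ratio of the members with a mean under 10. By replicate number, its WT libraries had 1, 4, 0, 0, 0 and 0 reads, compared with 4, 9, 12, 15, 13 and 8 in rd6. WT replicate 2 and rd6 replicate 1 both had 4 reads, and the other rd6 libraries were above all WT libraries. The ratio was 11.8 (exact 95% interval 4.77 to 37.5, edgeR q = 0.00535). The edgeR log2 fold change of 3.39 was 4.96 without WT replicate 2, which held 4 of the 5 WT reads. *Cxcr3*, *Cxcr5* and *Cxcr6* had 9, 3 and 6 reads in WT and 16, 21 and 15 in rd6. *Cxcr5*, a B cell receptor, had 8, 6 and 5 reads in 3 rd6 libraries and 0 or 1 in the rest of both genotypes, with edgeR q = 0.0778.

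**Figure D4:**
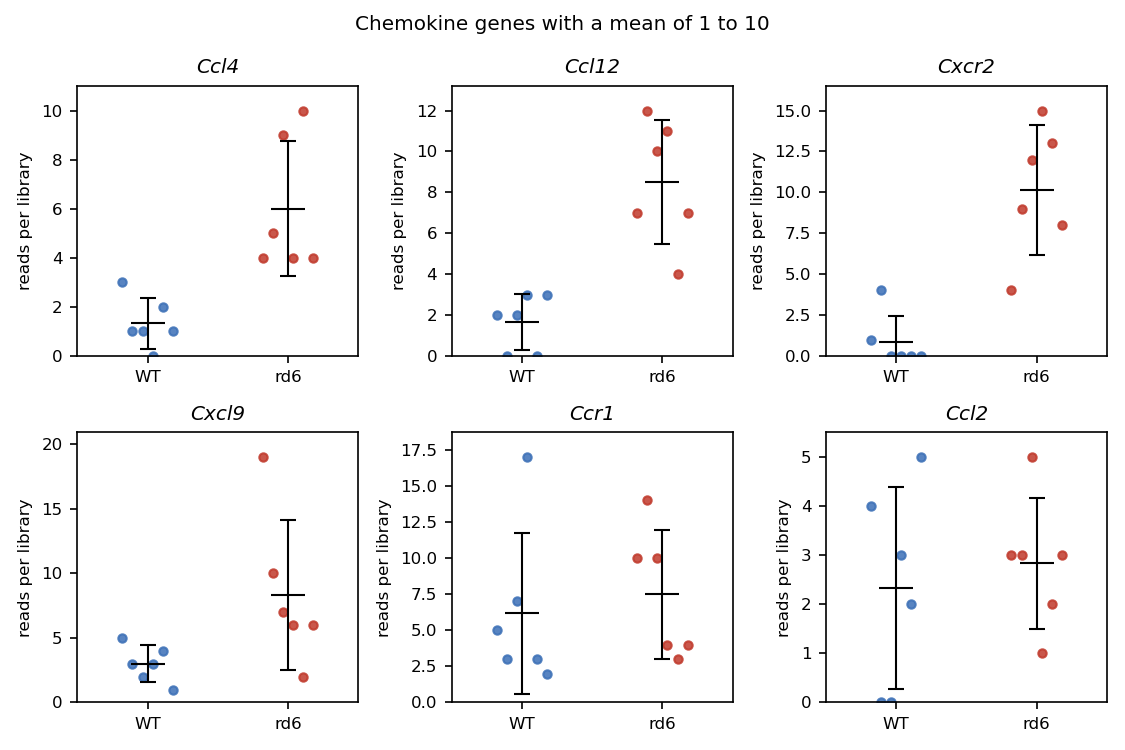
Reads per library for 6 members with a mean under 10, WT in blue and rd6 in red, with 6 libraries each. Bars give the mean and SD. *Ccl4* and *Ccl12* do not overlap between the genotypes, *Cxcr2* meets at 4 reads, and *Cxcl9*, *Ccr1* and *Ccl2* overlap.

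All 4 atypical receptors were tested, and 1 passed. *Ackr3*, an atypical receptor that takes up *Cxcl12*, was by far the most abundant member. Per kb of exon it stood at 1008 ± 52.4 normalized counts in WT and 817 ± 106 in rd6 (SD, n = 6). Before division by length, WT libraries 1 to 6 were at 3517, 3592, 3403, 3101, 3376 and 3270.3 normalized counts and rd6 libraries at 2753, 2338, 2737, 2827, 2428 and 3338. In rd6, 5 of 6 libraries lay below the lowest WT library, and replicate 6 lay within the WT range. The means were 3376 ± 175 and 2737 ± 353 (SD, n = 6), and the log2 fold change was -0.31 (SE 0.08, 95% confidence interval -0.48 to -0.14, limma q = 0.0113). Its q stayed below 0.05 under each alternative run. *Cxcr4* thus rose and *Ackr3* fell, while *Cxcl12*, which binds both, did not pass the main test.

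*Ackr2*, a scavenger of inflammatory CC chemokines, was at 18.7, 17.5, 27, 5.83, 19.9 and 16.4 normalized counts in the WT libraries and at 48.4, 60.8, 23.6, 22.0, 25.3 and 28.8 in the rd6 libraries. The log2 fold change of 0.96 (SE 0.35) missed the limit with limma (q = 0.0689) and edgeR (q = 0.0690) and passed with DESeq2 (q = 0.0361). *Ackr1*, which marks venules and binds many inflammatory chemokines, was at 35.3 ± 19.3 and 32.5 ± 13.4 normalized counts (SD, n = 6). *Ackr4*, a scavenger of *Ccl19*, *Ccl21* and *Ccl25*, was at 43.7 ± 20.2 and 51.8 ± 15.3. Neither passed, and both overlap other genes.

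Set per kb of exon, the order in WT was *Ackr3*, *Cx3cl1* at 149 ± 30.4, *Cxcl12* at 60.2 ± 15.3, the main *Ccl27a* gene at 59.2 ± 11.3, *Cxcl16* at 55.2 ± 25.3 and *Ccl9* at 45.4 ± 10.03 normalized counts (SD, n = 6). The ranges of mean ± SD of the last 4 overlapped. In rd6, *Cx3cl1* stood at 256 ± 44.1 and *Cxcl12* at 94.3 ± 31.3, and *Ccl9* at 23.9 ± 4.17 was below *Ccl6* at 48.8 ± 15.6, *Cxcr4* at 45.3 ± 12.3 and *Ccl3* at 31.2 ± 10.5. The ranges of *Ccl9* and *Ccl3* overlapped in rd6, and in WT *Ccl3* had stood at 6.30 ± 6.25.

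Markers of other cells also differed between the genotypes, and whether they varied with the members from library to library was not tested. Of 18 markers of microglia and macrophages, 16 rose and none fell (0 were lower at an unadjusted limma p below 0.05). The median of their log2 fold changes was 2.62, and their summed level was 16978 to 22695 normalized counts in WT and 29391 to 46695 in rd6. *Csf1r*, which makes up most of that sum, did not pass the test, and *Trem2* went from 51.6 to 1127 normalized counts. The part of such cells in the rise of *Ccl3*, *Ccl4*, *Ccl5*, *Ccl6*, *Ccl12* and *Cxcr4*, or in the fall of *Ccl9*, was not tested. Of 10 endothelial markers 6 rose, with sums of 7671 to 14605 and 11010 to 26982, and their part in the values of *Cxcl12*, *Cxcr4* and *Ackr2* was not tested.

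Of 8 neutrophil markers in the table, 3 were tested and 2 rose, *Csf3r* and *S100a8*, with sums over the list of 21 to 152 and 195 to 330.5 normalized counts. The WT maximum was in replicate 4. *Ly6g*, a marker of mature neutrophils, and *Mpo*, whose transcript marks their precursors, had means of 0.167 and 0.156 normalized counts over the 12 libraries, and the part of neutrophils in the reads of *Cxcr2* was not tested. Of 15 markers of T and NK cells, 3 were tested and 1 rose (*Zap70*), with sums of 51.6 to 97.1 and 89.5 to 173, and of 7 B cell markers 2 were tested and 1 rose (*Ighm*), with sums of 42.1 to 90.9 and 96.9 to 272. Of 7 dendritic cell markers 1 of 3 tested rose, with sums of 178 to 294 and 270.4 to 456. Of 12 RPE markers 4 fell, and the sums were 1464739 to 2213778 and 1404819 to 1894765. Of the remaining lists, 1 of 10 fibroblast and mural markers, 1 of 6 melanocyte, 4 of 12 rod and 2 of 7 Müller glia markers fell, and 1 melanocyte marker rose. Beside all these marker counts, 11.4% of all genes tested rose and 11.6% fell. The rod markers summed to 34425 to 74880 normalized counts in WT, to 18112 to 24452 in 5 rd6 libraries and to 65219 in rd6 replicate 5. That library also had the lowest fibroblast and mural sum, 13558, and the lowest RPE sum of all 12. Without it, 6 members rose and 2 fell with limma, as with it, and the median log2 fold change over the tested members was 0.42.

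The signaling genes below the receptors were taken as a list of 53, of which 50 were tested. Here 26 rose and 5 fell, beside 11.4% and 11.6% of all genes tested, with a median log2 fold change of 0.43. Past the fold limit 14 rose, beside 4.69% of all genes tested. The largest rises were those of *Vav1* (2.74, limma q = 7.65e-05), a guanine nucleotide exchange factor of blood cells, *Plcb2* (2.52, q = 5.88e-05), a phospholipase activated by G proteins, and *Pik3cg* (2.45, q = 0.00113), the PI3-kinase subunit activated by Gβγ. All 3 are best known from leukocytes, and the part of such cells in these values was not tested. None fell past the fold limit, and *Gnb1*, a G-protein β subunit also used by photoreceptors, had a log2 fold change of -0.70 (limma q = 2.7e-06).

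Of 13 other genes of the chemokine system, 12 were tested, 3 rose (*Cx3cr1*, *Tafa1* and *Cd74*, the invariant chain that also binds Mif) and none fell with limma, edgeR or DESeq2 (1 was lower at an unadjusted limma p below 0.05). *Mif* itself stood at 5263 and 5267 normalized counts. Of 31 genes of NF-κB and interferon signaling upstream of chemokines, inhibitors such as *Tnfaip3* included, 25 were tested. Of these, 6 rose and 2 fell, beside 11.4% and 11.6% of all genes tested. The list summed to 16141 to 16681 normalized counts in 5 WT libraries, to 20504 in WT replicate 4, which also held most WT reads of *Cxcl1*, *Cxcl2*, *Ccl17* and *Ccl22*, and to 19118 to 20401 in rd6. *Irf8*, a factor of myeloid cells (log2 fold change 1.98, limma q = 1.4e-05), and *Tnfrsf1a*, a receptor of tumor necrosis factor (0.84, q = 1.03e-07), rose past the fold limit. *Tnfaip3*, an inhibitor of NF-κB, had a log2 fold change of -0.61 (q = 0.00154). *Tnf*, *Il1a*, *Nfkbia* and *Irf1* did not pass the test.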

How the data were processed

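RPE RNA of 6 WT and 6 rd6 samples was sequenced. The authors prepared stranded total-RNA libraries and used Rsubread with mm10 to align and count reads, after bcl2fastq and FastQC, per the labels and the study's methods, and no tool version is given in the sources used here. The deposited signal per gene and library is a count of reads over a DESeq2 size factor (normalized counts). The authors also deposited the mean, log2 fold change, standard error, statistic and p-values of their DESeq2 comparison, which were not used. Of 28596 entries, 5 that repeat 4 identifiers were dropped. Divided by the smallest step of its library, each value came out whole (100% within 0.001), which gave the reads back. No pair of libraries was a copy of another (lowest chi-square per gene over 66 pairs, 10.9).

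The design named limma for normalized values, and limma 3.58.1 (R 4.3.3, mean-variance trend) was run on log2(value + 1) for 17768 genes whose mean was 10 or more, with genotype as the only term, Benjamini-Hochberg adjustment and a limit of 0.05 on the adjusted p-value (q). Such fold changes understate the change of low genes. Members with a mean of 1 to 10 were tested with edgeR 4.0.16 (quasi-likelihood) on the recovered reads of 22917 genes. DESeq2 1.42.0, pseudocounts of 0.1 and 10, other filters, a replicate block and leaving out each library were alternatives. Scripts were tested on simulated data. Intervals on reads cover counting error only. With 28907262 to 33152725 reads per library, 3 reads equal 2.71 to 3.32 normalized counts.

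Named with values by library were members past q of 0.05 and the fold limit (0.81 on the log2 scale), members whose genotypes were apart and the most abundant member of each role. Of the lists, at most 3 rises and falls past both limits were to be named, and *Mfrp* as the check of the labels. Every other gene named with its values, *Gnb1*, *Tnfaip3*, *Trem2* and *Mif* among them, was chosen after its values were seen. Members and lists were chosen with earlier results of these data known. Positions are from GENCODE M21 (GRCm38, which is mm10), and promoter sequences are from RefSeq (GRCm38.p6). Not every member selected in this way is reported here.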

Additional observations from a re-analysis of the deposited data

Results flagged for a closer look

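In 3 of the 52 groups of 6 libraries (the 26 tested members in each genotype), 1 library lay far from the other 5, by the gap to its nearest neighbor set against the whole range, and chance alone would pick out about 1 in 20 groups. *Cxcl16* was highest in WT replicate 4, at 318.6 normalized counts, with the others at 105 to 156. *Ackr2* was lowest in the same library, at 5.83, with the others at 16.4 to 27. The copy of *Ccl27a* with the identifier ENSMUSG00000093828 was highest in rd6 replicate 3, at 12.3, with the others at 8.59 to 9.28.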

How the results depend on the processing

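The number of members that rose past the fold limit, 4 in the report, was 2 with a pseudocount of 10, 8 with a filter at a mean of 1, 7 with no filter, 8 with edgeR over genes with a mean of at least 1 and 9 with DESeq2. It ranged from 1 to 5 when each library was left out in turn, and was 1 without WT replicate 2, rd6 replicate 1 or rd6 replicate 2. By q alone it was 6 in the report, 10 with a filter at a mean of 1, 10 with edgeR over genes with a mean of at least 1 and 12 with DESeq2, and 3 to 7 with a library left out, being 3 without the same 3 libraries. The settings that keep a mean of at least 1 test more members, 53 in place of 26. Without WT replicate 4 these counts were 5 and 7. The number that fell stayed at 2 by q and 1 with the fold limit under all 9 alternative settings and all 12 left-out libraries. The median log2 fold change of the tested members, 0.53, was 0.37 with a pseudocount of 10 and 0.42 to 0.65 with a library left out.

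With the replicate number as a block, 2 members rose by q and 1 past the fold limit as well. *Ccl5*, *Ccl6*, *Cxcr4*, *Ccl4* and the low Ccl21b/Ccl21c copy did not pass under the block, with q of 0.0837, 0.0981, 0.0986, 0.0517 and 0.128. The numbers do not pair the libraries: same-numbered libraries had correlations of their deviations from -0.74 to 0.31 over 6 pairs, and 0 of the 6 WT libraries correlated best with its own number. For the 12 members past q of 0.05, 202 of 232 values under an alternative kept direction and side of the limit, 30 lost the limit and 0 reversed. TMM rescaling moved the median of all genes by 0.00033 on the log2 scale.

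Depth limits the 27 members under a mean of 10, of which several have under 10 reads in a genotype. No strand setting of the counting is named, and the split of reads between copies is unknown.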
